A study of Mus musculus with 9 samples.

Results

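The MYC and MXD network is a family of transcription factors that bind DNA as dimers with the shared partner MAX. It was followed through 10 genes, namely the paralogs Myc, Mycn and Mycl, their partner Max, and the further MAX partners Mxd1, Mxd3, Mxd4, Mxi1, Mga and Mnt. The genes were picked by symbol, with earlier results of these data known, among them the higher Mycn in ORS than in HFSC. They are 10 of the 46517 gene rows in each library. All 10 were found, and all 10 passed the filter on low counts that left 20491 genes for testing. The question addressed was which MYC paralog each population of the hair follicle uses, as far as RNA levels can show it.

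RNA was sequenced in bulk from mouse back skin at postnatal day 30, when follicles are in anagen VI, a stage of full hair growth. The hair bulb, the growing base of the follicle, gave 2 libraries of its suprabasal cells (suprabasal HB) and 2 of its basal cells (basal HB). The outer root sheath (ORS), the outer epithelial layer of the follicle, gave 2 libraries. The stem cells of the follicle (HFSC), whose home is the bulge, gave 3. No treatment or mutation separates the populations: they differ in the gate with which they were sorted, and the gates themselves are not given in the sources used here. Per the labels, all 4 populations share the strain entry Lhx2-GFP (CD1), mixed sex, and sorting on Sca-1, CD34, Pcadherin, the integrins α6 and b1, and GFP. The extraction text instead names K14-H2BGFP mice, in which a keratin 14 promoter drives a GFP-tagged histone, so the source of the GFP is not settled. Whether replicates came from separate animals is not given in the sources used here, and p-values therefore measure the spread between these libraries, which may be technical.

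As background, MYC, MYCN and MYCL each dimerise with MAX, bind E-box sequences and activate genes of growth, ribosome production and metabolism. MXD1, MXD3, MXD4, MXI1 and MNT compete for MAX at the same sequences and recruit SIN3 and histone deacetylases, which represses those genes. MGA carries a second DNA-binding domain of the T-box type and joins MAX to the repressive Polycomb complex PRC1.6. In skin, MYC is known for driving stem cells out of the stem cell compartment and into proliferation and differentiation, and MYCN for its roles in embryonic progenitor cells.

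Total expected counts per library lay between 45438637 and 50752545 in suprabasal HB, 60990600 and 63511683 in basal HB, 64569201 and 88596741 in ORS, and 25098237 and 29902799 in HFSC, so HFSC libraries were the shallowest. Marker lists were summed on the TPM scale. The 7 hair matrix genes summed to 953.0 to 963.4 TPM in suprabasal HB, 1374.8 to 1456.6 in basal HB, 659.6 to 659.9 in ORS and 227.5 to 276.4 in HFSC. The 9 inner root sheath and hair shaft genes summed to 2696.8 to 3670.0 TPM in suprabasal HB and 1886.4 to 2020.6 in basal HB. Their sums were 725.3 to 1206.6 TPM in ORS and 425.1 to 662.7 in HFSC. The 9 genes of the bulge summed to 244.7 to 462.5 TPM in suprabasal HB, 858.9 to 1068.0 in basal HB, 4078.6 to 5262.2 in ORS and 4690.3 to 5263.4 in HFSC, so the sums overlapped between ORS and HFSC. Gene by gene, 7 were lower and 1 higher in ORS than in HFSC (23.8% and 18.1% of all genes), with a median log2 change of -1.27. Lhx2 had 2060 and 2382 TPM in ORS, against 846, 710 and 859 TPM in HFSC. Within that list, the bulge marker Cd34 had 47.6 and 60.0 TPM in ORS, against 256, 224 and 205 TPM in HFSC. The 7 genes of the outer root sheath list, led by the keratins Krt5 and Krt17, were not highest in ORS, with 3226.1 to 3844.4 TPM in ORS against 7688.4 to 8860.8 TPM in HFSC, and Krt16 was below 1 TPM in both ORS libraries. The 10 melanocyte genes summed to 11259.4 to 12474.8 TPM in suprabasal HB, 788.0 to 1294.8 in basal HB, 53.4 to 265.5 in ORS and 64.5 to 101.6 in HFSC, and Sox10 was below 1 TPM in all HFSC libraries. In bulk samples, fewer cells of a type and less RNA per cell cannot be told apart.

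Promoter sequences are shown for Mycn and Mycl, the members with the largest changes, and for Mxd4, the most abundant of the repressive partners. They come from RefSeq on build GRCm38.p6 and run from 250 bases before the annotated start to 50 bases after it, written 5′ to 3′ on the gene's own strand. The Mycn window is chr12:12941787-12942086 on the minus strand, the Mycl window chr4:122995681-122995980 on the plus strand, and the Mxd4 window chr5:34187661-34187960 on the minus strand. Capitals mark exact matches, on either strand, to the E-box CACGTG, to TTTGGCGC, a form of the E2F site, or to CTTTGAT, a form of the TCF/LEF site.
Mycn: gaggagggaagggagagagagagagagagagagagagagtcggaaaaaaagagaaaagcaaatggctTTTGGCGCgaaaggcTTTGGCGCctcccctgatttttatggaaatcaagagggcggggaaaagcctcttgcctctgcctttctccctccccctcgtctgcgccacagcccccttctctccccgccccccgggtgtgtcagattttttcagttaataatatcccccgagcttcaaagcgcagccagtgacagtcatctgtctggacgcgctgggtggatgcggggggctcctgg
Mycl: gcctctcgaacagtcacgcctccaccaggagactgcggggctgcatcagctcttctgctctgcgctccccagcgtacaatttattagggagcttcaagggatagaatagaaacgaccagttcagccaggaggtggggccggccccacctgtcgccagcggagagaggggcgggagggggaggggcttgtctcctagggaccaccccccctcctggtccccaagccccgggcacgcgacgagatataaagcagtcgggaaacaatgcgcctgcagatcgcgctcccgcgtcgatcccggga
Mxd4: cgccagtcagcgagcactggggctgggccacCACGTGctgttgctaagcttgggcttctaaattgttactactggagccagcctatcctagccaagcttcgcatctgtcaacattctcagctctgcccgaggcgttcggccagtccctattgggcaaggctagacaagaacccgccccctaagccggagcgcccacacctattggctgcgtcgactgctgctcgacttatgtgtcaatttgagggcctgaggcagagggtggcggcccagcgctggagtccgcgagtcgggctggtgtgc
Mycn carried 2 matches to TTTGGCGC, a sequence found in 0.51% of the 32851 RefSeq promoter windows of this length. The Mxd4 window held CACGTG at position -219 from the start, Max held it at -3 and Mnt at -123, and 7.15% of all windows held it. No window of the network held CTTTGAT, which 3.73% of all windows held. These are matches of letters only. Entries were present for 9 of the 10 genes, with Myc named only. In the annotation of mm10 (GENCODE M21), Mycn lies at chr12:12936093-12941914 on the minus strand, Mycl at chr4:122995652-123002485 on the plus strand and Myc at chr15:61985391-61990374 on the plus strand, all protein-coding and overlapped by no other gene. Of the partners, Max lies at chr12:76937269-76962201, Mxd1 at chr6:86647042-86669161, Mxd3 at chr13:55325168-55329823 and Mxd4 at chr5:34173883-34187720, all on the minus strand. Mxi1 lies at chr19:53310518-53375810, Mga at chr2:119897228-119969581 and Mnt at chr11:74830920-74845725, all on the plus strand.

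Counts of the network that passed the test (edgeR's quasi-likelihood test, Benjamini-Hochberg adjusted p under 0.05) were read against the share of all genes that passed. Set against HFSC, suprabasal HB had 6 of 10 past the threshold, 5 higher and 1 lower, where 51.5% of all genes passed. Suprabasal HB against ORS gave 4, with 2 in each direction, where 29.4% of all genes passed. Suprabasal HB against basal HB gave 5, of which 4 were higher and 1 lower, where 27.9% passed. Basal HB against ORS gave 6, with 3 in each direction, where 30.5% passed. Basal HB against HFSC gave 4, of which 3 were higher and 1 lower, where 48.9% passed. ORS against HFSC gave 7, of which 5 were higher and 2 lower, where 41.9% passed. With 10 genes, the share that passed was near the background where HFSC was compared with either bulb population, and no more is read from these counts. The 6 comparisons share libraries, so they are not independent of each other.

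The plot of log2 changes for the 10 genes in the 6 comparisons shows Mycn and Mycl as the genes with the widest range and Max and Mnt with the narrowest. Of the 60 tests, 32 passed. Max and Mnt passed in 0 of 6 comparisons, Mga in 3, Mxd1 in 5, and Myc, Mycn, Mycl, Mxd3, Mxd4 and Mxi1 in 4 each. At an unadjusted p under 0.05, Max passed in 2 comparisons, suprabasal HB against ORS and against HFSC, and Mnt in 0. With DESeq2, the adjusted p of Max in suprabasal HB against HFSC was 0.0301, and Max in the other comparisons and Mnt in all 6 did not pass.

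**Figure D1:**
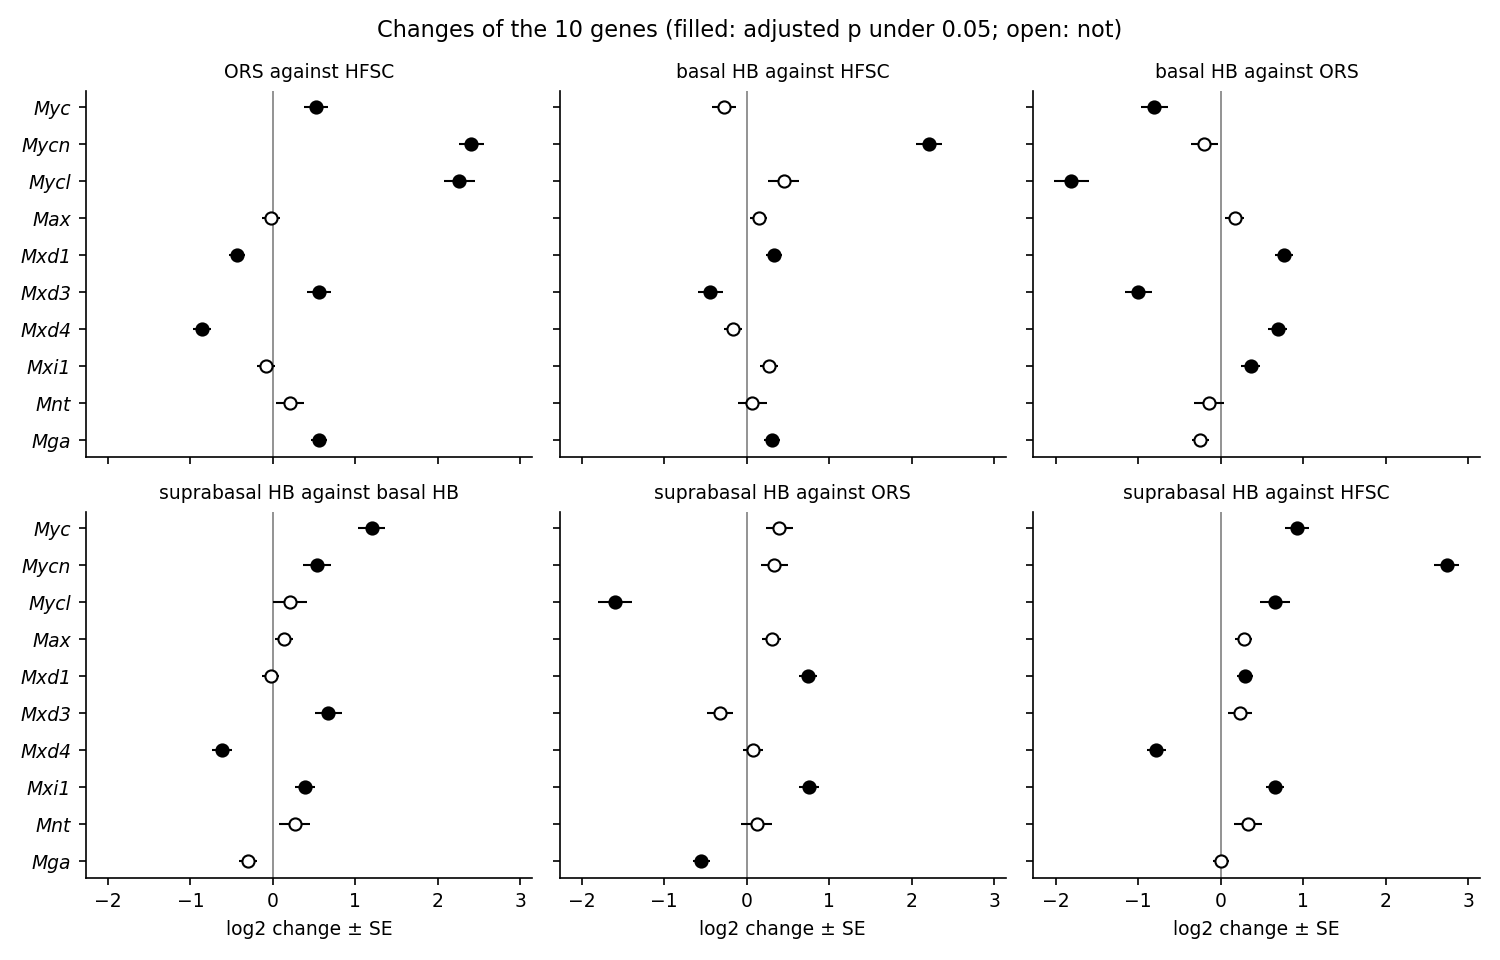
Log2 change with its standard error (x axis) of the 10 genes of the network (y axis) in 6 comparisons of populations, from edgeR's quasi-likelihood fit of 9 libraries; filled points passed an adjusted p of 0.05 and open points did not. Mycn lies at 2.21 to 2.74 in the 3 comparisons with HFSC, Mycl at 2.26 in ORS against HFSC, and Max and Mnt have open points only.

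Mycl was the most abundant of the 3 paralogs in each of the 9 libraries on the TPM scale, and Mycn was the paralog that was low in HFSC. Mycn had 52.6 and 60.8 TPM in suprabasal HB, 45.8 and 48.1 TPM in basal HB, 52.4 and 50.8 TPM in ORS, and 6.93, 9.65 and 7.65 TPM in HFSC. The 3 HFSC libraries thus lay below all 6 others with a wide gap, and the other populations lay close to each other. Mycn, which encodes N-MYC, was 6.68-fold higher in suprabasal HB than in HFSC (log2 2.74 ± 0.16 SE, adjusted p = 2.5e-06). It was 4.62-fold higher in basal HB than in HFSC (log2 2.21 ± 0.16, adjusted p = 1.4e-05) and 5.30-fold higher in ORS than in HFSC (log2 2.41 ± 0.16, adjusted p = 3e-05). All 3 passed in every one of 18 alternative settings, with log2 changes between 2.09 and 2.95. The HFSC libraries also stood apart in other measures. They were the shallowest, and the effective length was 1495 to 1628 bases for Mlx and 1347 to 1446 for Usf2 in the other populations, against 967 to 1145 and 1029 to 1069 in HFSC. Mycl did not differ in this way, with 3120 to 3161 bases in the other populations against 3115 to 3171 in HFSC. For Mycn itself the effective length was 2443 to 2505 bases in the other populations against 2177 to 2499 in HFSC. Effective length enters TPM but not the fold changes, which come from counts. The part of these differences between libraries in the level of Mycn was not tested. Among the remaining populations, suprabasal HB against basal HB gave log2 0.53 (adjusted p = 0.041), a call that was lost in 7 settings. The log2 change was 0.34 in suprabasal HB against ORS (adjusted p = 0.17) and -0.20 in basal HB against ORS (adjusted p = 0.43), neither past the threshold.

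Mycl, which encodes L-MYC, stood apart in ORS. It had 101 and 111.6 TPM in suprabasal HB, 106.5 and 115.8 TPM in basal HB, 317 and 436 TPM in ORS, and 53.3, 58.5 and 74.3 TPM in HFSC. Both ORS libraries exceeded every other library, the 2 bulb populations overlapped, and the HFSC libraries were lowest. Normalised CPM averaged 649.9 ± 133.9 in ORS and 135.8 ± 24.2 in HFSC (SD, n = 2 and 3), a 4.78-fold rise (log2 2.26 ± 0.19 SE, adjusted p = 7.1e-05). Mycl was 3.51-fold lower in basal HB than in ORS (log2 -1.81 ± 0.21, adjusted p = 0.00045) and 3.03-fold lower in suprabasal HB than in ORS (log2 -1.597 ± 0.211, adjusted p = 0.00059). These 3 passed in all 18 alternative settings. Suprabasal HB was 1.58-fold above HFSC (log2 0.66, adjusted p = 0.016), but without the second suprabasal HB library the adjusted p was 0.0661. Basal HB against HFSC gave log2 0.45 (adjusted p = 0.076), which passed in 9 of the 18 settings, among them DESeq2 (adjusted p = 0.0216). Suprabasal HB against basal HB gave log2 0.21 (adjusted p = 0.49).

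Myc, which encodes c-MYC, was highest in suprabasal HB and ORS. It had 50.7 and 41.4 TPM in suprabasal HB, 24.2 and 24.4 TPM in basal HB, 31.9 and 47.6 TPM in ORS, and 25.7, 22.6 and 23.3 TPM in HFSC. The ORS libraries differed widely and overlapped suprabasal HB, while basal HB and HFSC overlapped each other. Myc was 2.29-fold higher in suprabasal HB than in basal HB (log2 1.198 ± 0.162 SE, adjusted p = 0.001) and 1.89-fold higher than in HFSC (log2 0.92 ± 0.15, adjusted p = 0.00079), and both calls held in all 18 settings. It was 1.74-fold lower in basal HB than in ORS (log2 -0.80, adjusted p = 0.0055), which became 0.0566 without the first basal HB library. It was 1.44-fold higher in ORS than in HFSC (log2 0.52, adjusted p = 0.019), which became 0.173 without the second ORS library. The 13 immediate early genes, which rise when tissue is dissociated, were lowest in suprabasal HB, with summed levels of 794.6 to 1645.1 TPM in suprabasal HB, 2356.2 to 2808.5 in basal HB, 1908.0 to 2118.0 in ORS and 2841.7 to 3413.2 in HFSC. All 10 melanocyte genes were higher in suprabasal HB than in each other population, and the part of either list in the level of Myc was not tested.

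**Figure D2:**
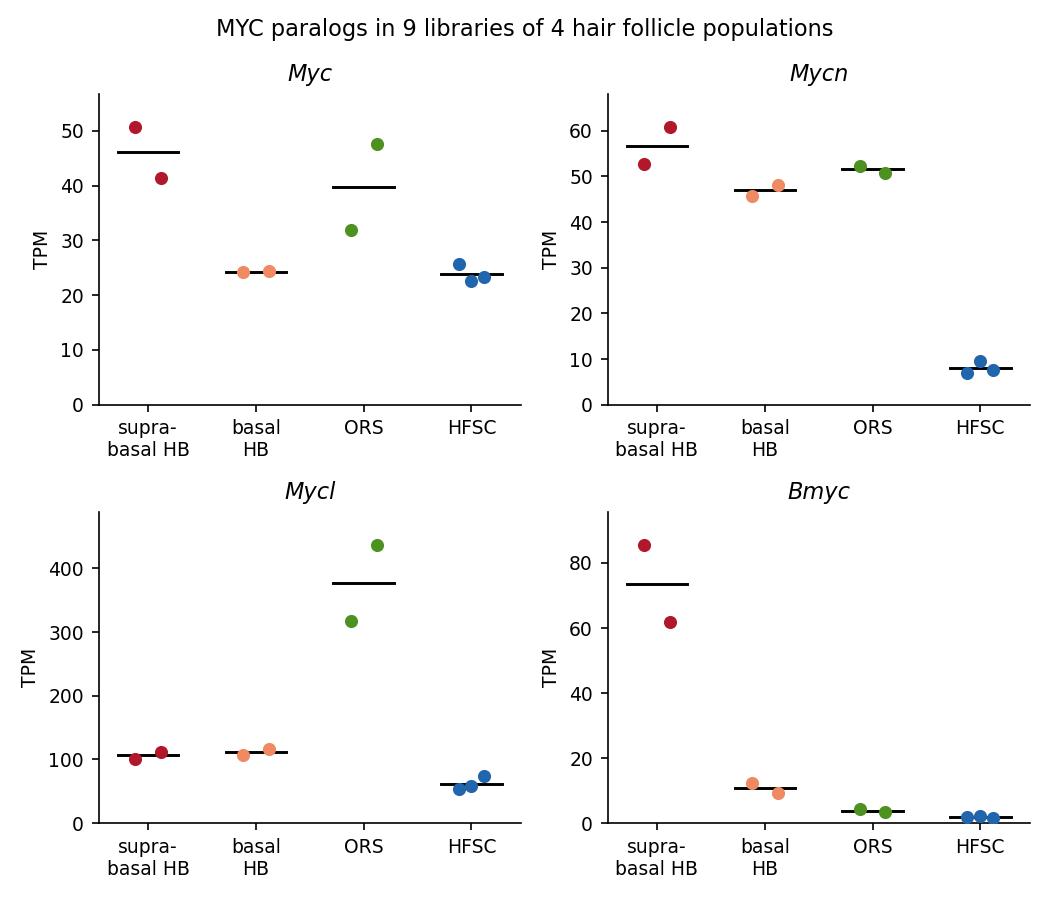
TPM (y axis) of Myc, Mycn, Mycl and the related gene Bmyc in suprabasal HB, basal HB, ORS and HFSC (x axis); points are libraries and bars are means. Mycn is at 6.93 to 9.65 TPM in HFSC, below the 6 other libraries, Mycl is at 317 and 436 TPM in ORS, above the 7 other libraries, and Bmyc is at 61.85 and 85.4 TPM in suprabasal HB.

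Shares of the summed TPM of Myc, Mycn and Mycl describe which paralog made up the pool. Mycl made up 49.4% and 52.2% in suprabasal HB, 60.3% and 61.5% in basal HB, 79.0% and 81.6% in ORS, and 62.0%, 64.5% and 70.6% in HFSC. Mycn made up 25.7% and 28.4% in suprabasal HB, 25.9% and 25.6% in basal HB, 13.0% and 9.5% in ORS, and 8.1%, 10.6% and 7.3% in HFSC. Myc made up 24.8% and 19.4% in suprabasal HB, 13.7% and 12.9% in basal HB, 7.9% and 8.9% in ORS, and 29.9%, 24.9% and 22.1% in HFSC. The paralog after Mycl was thus Myc in each HFSC library and Mycn in each library of the other populations. The summed level of the 3 paralogs was 204.4 and 213.9 TPM in suprabasal HB, 176.5 and 188.3 TPM in basal HB, 401.7 and 534.5 TPM in ORS, and 85.9, 90.7 and 105.2 TPM in HFSC. ORS therefore held the largest pool, mostly Mycl, and HFSC the smallest.

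The balance of Mycn and Myc was compared as the log2 ratio of their TPM in each library. It was 0.05 and 0.56 in suprabasal HB, 0.92 and 0.98 in basal HB, 0.72 and 0.09 in ORS, and -1.89, -1.23 and -1.61 in HFSC. Mycn exceeded Myc in all 6 libraries outside HFSC, and Myc exceeded Mycn in all 3 HFSC libraries. The population means lay furthest apart between basal HB, at 0.95 ± 0.04 (SD, n = 2), and HFSC, at -1.57 ± 0.33 (SD, n = 3), a difference of 2.52. An exact permutation test of the population labels over all 7560 arrangements of the 9 libraries gave p = 0.0032, 2-sided by its F statistic.

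**Figure D3:**
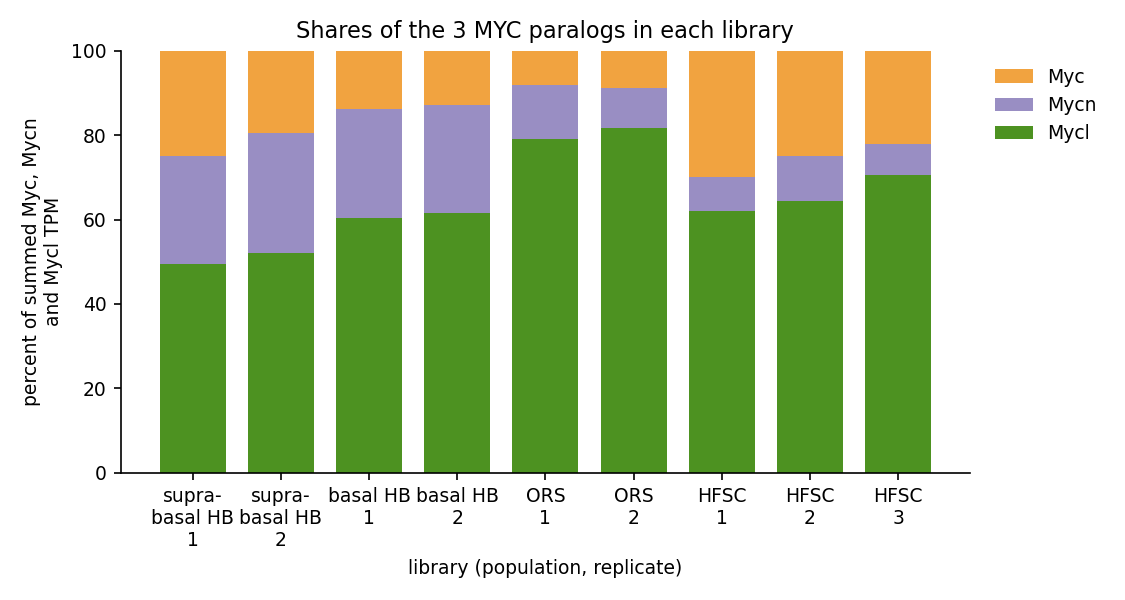
Share of the summed Myc, Mycn and Mycl TPM (y axis, percent) held by each paralog in each of the 9 libraries (x axis). Mycl holds 49.4% to 81.6%, its largest share being in ORS, and Mycn holds 7.3% to 10.6% in HFSC against 25.6% to 28.4% in the libraries of the 2 bulb populations.

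Max, the obligate partner, showed no change past the threshold in the count test. It had 56.7 and 60.1 TPM in suprabasal HB, 64.9 and 63.7 TPM in basal HB, 50.5 and 59.9 TPM in ORS, and 47.3, 42.4 and 43.4 TPM in HFSC. The largest log2 change was 0.30 in suprabasal HB against ORS (adjusted p = 0.078). Suprabasal HB against HFSC lay at the threshold (log2 0.28, adjusted p = 0.0502) and passed in 13 of the 18 settings. On the deposited TPM scale with limma, ORS exceeded HFSC by 0.31 (adjusted p = 0.0267) and basal HB exceeded HFSC by 0.53 (adjusted p = 0.00176), and upper-quartile scaling gave 0.28 in basal HB against HFSC (adjusted p = 0.0288), so that the calls for Max depend on these choices. Over all genes, limma on log2(TPM + 1), which changes the unit and the test together, passed 5991 as higher and 2756 as lower in ORS against HFSC, where edgeR on counts gave 3703 and 4873. In basal HB against HFSC, limma on TPM gave 7940 higher and 3018 lower against 4681 and 5345 with edgeR, and in suprabasal HB against basal HB it gave 1098 and 4269 against 2679 and 3042. For suprabasal HB against ORS, it gave 1835 higher and 4035 lower against 2927 and 3094. Upper-quartile scaling gave 5915 higher and 4418 lower in basal HB against HFSC, with a median log2 change of 0.13 over all genes. With limma on TPM, the median log2 change of all genes was 0.13 in ORS against HFSC, 0.21 in basal HB against HFSC, -0.16 in suprabasal HB against basal HB and -0.13 in suprabasal HB against ORS, where edgeR gave -0.05, -0.004, 0 and -0.01.

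Among the repressive partners, Mxd4 was the most abundant on the TPM scale in every library, with 41.5 to 48.8 TPM in suprabasal HB, 79.2 to 81.4 in basal HB, 43.7 to 52.6 in ORS and 55.0 to 69.6 in HFSC. Its normalised CPM was 94.4 and 92.3 in suprabasal HB, 137.0 and 148.4 in basal HB, 80.4 and 96.4 in ORS, and 176.3, 155.2 and 148.6 in HFSC. On CPM, suprabasal HB and ORS were low and overlapped, and basal HB and HFSC were high and nearly met. Mxd4, an antagonist of MYC found in resting and differentiating cells, fell by 0.61 on the log2 scale in suprabasal HB against basal HB (SE 0.12, adjusted p = 0.0062) and by 0.78 in suprabasal HB against HFSC (SE 0.11, adjusted p = 0.00047). It was 1.61-fold higher in basal HB than in ORS (log2 0.69 ± 0.12, adjusted p = 0.0028), and these 3 calls held in all 18 settings. It was 1.81-fold lower in ORS than in HFSC (log2 -0.86 ± 0.11, adjusted p = 0.00051), but on the TPM scale this was -0.31 (adjusted p = 0.0861). Basal HB against HFSC reversed between scales, at -0.17 on CPM (adjusted p = 0.24) and 0.42 on TPM (adjusted p = 0.0268). The effective length of Mxd4 was 3237 to 3432 bases in the other populations against 3812 to 3858 bases in HFSC, which enters TPM but not CPM. An antisense gene, Gm42846, shares 5.59% of the 25-base words of Mxd4.

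Mxd1, a MYC antagonist known for its rise in differentiating keratinocytes, was lowest in ORS. Its normalised CPM was 26.3 and 28.3 in suprabasal HB, 28.7 and 26.8 in basal HB, 15.8 and 16.9 in ORS, and 23.6, 20.95 and 21.8 in HFSC. The bulb populations overlapped each other and lay above HFSC, and ORS lay below all. Mxd1 was 1.67-fold higher in suprabasal HB than in ORS (log2 0.74 ± 0.11, adjusted p = 0.00096) and 1.70-fold higher in basal HB than in ORS (log2 0.77 ± 0.11, adjusted p = 0.00093). On TPM, basal HB against ORS remained past the threshold and suprabasal HB against ORS did not (0.44, adjusted p = 0.072). Its log2 change was 0.30 in suprabasal HB against HFSC (adjusted p = 0.028), 0.33 in basal HB against HFSC (adjusted p = 0.021) and -0.44 in ORS against HFSC (adjusted p = 0.0073). Each of these 3 was lost in 3 to 6 of the 18 settings, and the last was -0.07 on TPM (adjusted p = 0.727).

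Mxd3, the family member known for expression in cells in S phase, was highest in ORS. Its normalised CPM was 18.3 and 15.8 in suprabasal HB, 11.3 and 10.1 in basal HB, 23.6 and 19.1 in ORS, and 13.9, 16.4 and 13.4 in HFSC. The ORS libraries lay above and the basal HB libraries below all others. Mxd3 was 1.99-fold lower in basal HB than in ORS (log2 -0.996 ± 0.162, adjusted p = 0.002), which held in all 18 settings. It was 1.59-fold higher in suprabasal HB than in basal HB (log2 0.67 ± 0.16, adjusted p = 0.015), lost in 5 settings, and 1.47-fold higher in ORS than in HFSC (log2 0.56 ± 0.15, adjusted p = 0.015), lost in 2. Basal HB was 1.36-fold lower than HFSC (log2 -0.44 ± 0.15, adjusted p = 0.038), a call lost in 11 settings. The 10 proliferation genes summed to 1071.2 to 1164.4 TPM in suprabasal HB, 1013.7 to 1108.2 in basal HB, 1834.8 to 1932.4 in ORS and 696.5 to 789.5 in HFSC, and their part in the level of Mxd3 was not tested. The opposite-strand gene Prelid1 shares 3.38% of the 25-base words of Mxd3.

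Mxi1, also called MXD2, was highest in suprabasal HB. Its normalised CPM was 40.7 and 38.3 in suprabasal HB, 29.9 and 30.5 in basal HB, 24.3 and 22.6 in ORS, and 22.2, 24.4 and 28.3 in HFSC. Both suprabasal HB libraries lay above all 7 others, basal HB came next, and ORS and HFSC overlapped. Mxi1 was 1.58-fold higher in suprabasal HB than in HFSC (log2 0.66 ± 0.11, adjusted p = 0.00098), which held in all 18 settings, and 1.68-fold higher than in ORS (log2 0.75 ± 0.12, adjusted p = 0.0016), which on TPM was 0.48 (adjusted p = 0.0571). Suprabasal HB against basal HB (log2 0.39, adjusted p = 0.04) and basal HB against ORS (log2 0.36, adjusted p = 0.048) passed but were lost in 10 and 8 settings. The log2 change was 0.27 in basal HB against HFSC (adjusted p = 0.066, past the threshold in 12 settings) and -0.09 in ORS against HFSC (adjusted p = 0.54).

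Mnt, the widely expressed antagonist that limits MYC in most cell types, passed the threshold in none of the 6 comparisons. Its normalised CPM was 48.8 and 40.8 in suprabasal HB, 39.1 and 35.5 in basal HB, 42.0 and 40.4 in ORS, and 43.0, 26.9 and 36.6 in HFSC. The HFSC libraries were spread over 26.9 to 43.0 and overlapped each other population. The largest log2 change was 0.33 ± 0.17 SE in suprabasal HB against HFSC (adjusted p = 0.14), with a 95% interval of -0.00 to 0.67, and the adjusted p was 0.0196 without the first HFSC library.

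Mga was highest in ORS. Its normalised CPM was 92.8 and 91.5 in suprabasal HB, 119.8 and 107.6 in basal HB, 124.0 and 145.5 in ORS, and 87.8, 90.9 and 96.4 in HFSC. Suprabasal HB and HFSC overlapped at the low end, and basal HB lay between them and ORS. Mga fell by 0.55 on the log2 scale in suprabasal HB against ORS (SE 0.105, adjusted p = 0.0045) and was 1.47-fold higher in ORS than in HFSC (log2 0.56 ± 0.10, adjusted p = 0.0019), and both held in all 18 settings. Basal HB was 1.24-fold above HFSC (log2 0.31 ± 0.10, adjusted p = 0.025), which was lost on TPM (adjusted p = 0.0811) and without the first basal HB library (adjusted p = 0.19). The log2 change was -0.30 in suprabasal HB against basal HB (adjusted p = 0.062, past the threshold in 6 settings) and -0.25 in basal HB against ORS (adjusted p = 0.12). The effective length of Mga ranged from 6076 to 8749 bases over the 3 HFSC libraries, so its TPM is less certain than its CPM.

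**Figure D4:**
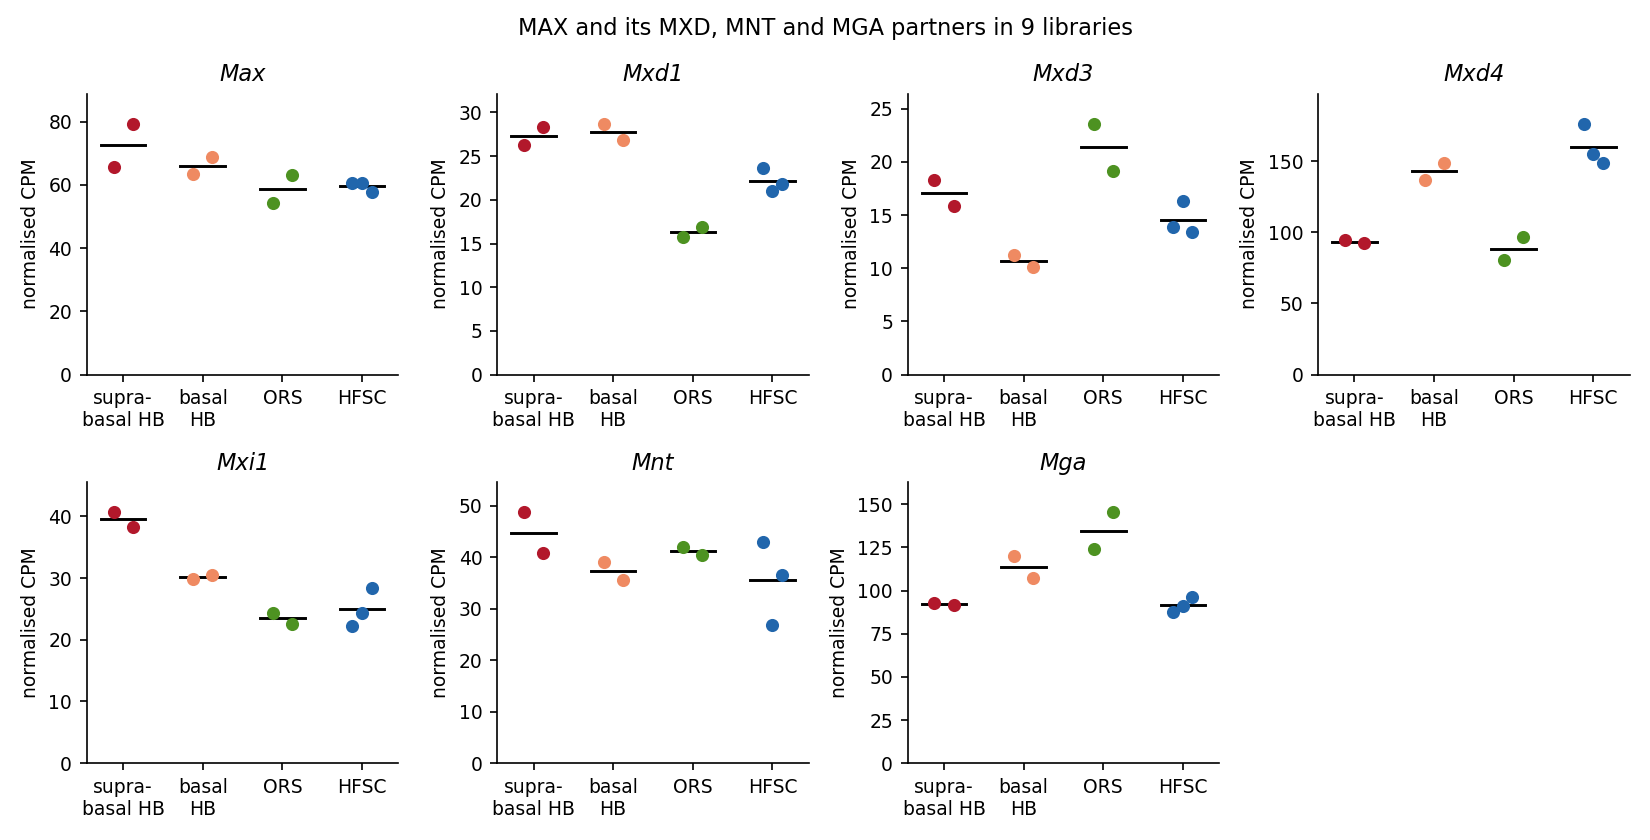
Normalised CPM (y axis) of Max, the MXD genes, Mnt and Mga in suprabasal HB, basal HB, ORS and HFSC (x axis); points are libraries and bars are means. Mxd4 is at 92.3 and 94.4 in suprabasal HB and 148.6 to 176.3 in HFSC, Mxd1 is lowest in ORS, Mxi1 is highest in suprabasal HB, and the HFSC libraries of Mnt spread over 26.9 to 43.0.

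As a description, the summed TPM of Myc, Mycn and Mycl was set against that of Mxd1, Mxd3, Mxd4, Mxi1, Mnt and Mga. The ratio was 1.52 and 1.963 in suprabasal HB, 1.06 and 1.22 in basal HB, 2.94 and 3.66 in ORS, and 0.65, 0.85 and 0.86 in HFSC. HFSC was the population with less RNA of the activating paralogs than of the repressive partners in every library. The repressive sum itself was 134.8 and 109.0 TPM in suprabasal HB, 166.5 and 153.8 in basal HB, 136.6 and 145.9 in ORS, and 132.3, 107.0 and 122.8 in HFSC, and varied less between populations than the activating sum did.

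Related factors that bind E-boxes or derive from MYC were taken from a list of 8, of which 7 were tested. Bmyc, a rodent gene related to the amino-terminal part of MYC whose protein lacks the domain for MAX and DNA, had 85.4 and 61.85 TPM in suprabasal HB, 12.3 and 9.14 TPM in basal HB, 4.21 and 3.48 TPM in ORS, and 1.75, 2.06 and 1.64 TPM in HFSC. The populations did not overlap, and suprabasal HB lay far above the rest. Bmyc was 8.26-fold higher in suprabasal HB than in basal HB (log2 3.05 ± 0.20, adjusted p = 4.4e-05), 22.0-fold higher than in ORS (log2 4.46 ± 0.22, adjusted p = 6e-06) and 36.8-fold higher than in HFSC (log2 5.20 ± 0.20, adjusted p = 6.1e-07). The melanocyte genes were likewise highest in suprabasal HB, with sums of 12474.8 and 11259.4 TPM in suprabasal HB, 1294.8 and 788.0 in basal HB, 265.5 and 53.4 in ORS, and 64.5, 101.6 and 70.3 in HFSC. The melanocyte sums overlapped between ORS and HFSC, and the part of these genes in the level of Bmyc was not tested. An antisense gene, A230005M16Rik, shares 61.94% of the 25-base words of Bmyc, and since the counting strand is not given in the sources used here, the value of Bmyc is uncertain. That antisense gene itself was listed at 1.92 and 1.86 TPM in suprabasal HB, 0.42 and 0.03 TPM in basal HB, and 0 in ORS and HFSC. Mycs, a retroposed relative, was listed at 0 in all 9 libraries.

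Tfap4, an E-box factor known as a direct target of MYC, was highest in ORS and lowest in HFSC. Its normalised CPM averaged 34.1 ± 0.74 in suprabasal HB, 23.6 ± 2.05 in basal HB, 43.7 ± 3.69 in ORS and 18.9 ± 1.51 in HFSC (SD, n = 2, 2, 2 and 3). It was 2.31-fold higher in ORS than in HFSC (log2 1.21 ± 0.10, adjusted p = 7.4e-05), 1.85-fold lower in basal HB than in ORS (adjusted p = 0.00064) and 1.44-fold higher in suprabasal HB than in basal HB (adjusted p = 0.0092). Usf1, a housekeeping E-box factor, was 1.27-fold lower in suprabasal HB than in HFSC (adjusted p = 0.02) and 1.22-fold lower in basal HB than in HFSC (adjusted p = 0.04). With all libraries kept, the suprabasal HB call was lost in 2 settings and the basal HB call in 7. The basal HB call was also lost without any 1 of the HFSC libraries. Mlx, a MAX-like partner of the glucose-sensing factors, was 1.32-fold lower in ORS than in HFSC (adjusted p = 0.013), and Mlxipl, one of those factors, was 1.84-fold higher there (adjusted p = 0.022). Mlxip averaged 51.5 ± 2.86 normalised CPM in suprabasal HB, 68.1 ± 1.202 in basal HB, 67.2 ± 14.2 in ORS and 64.8 ± 8.43 in HFSC, and Usf2 between 101.3 and 115.2 in the 4 populations, and neither was past the threshold in any comparison.

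Cofactors of MYC, activating and repressive, were a list of 12. In suprabasal HB against HFSC, 3 were higher and 2 lower, where 51.5% of all genes passed in either direction. Basal HB had 4 higher and 3 lower than HFSC, where 48.9% of all genes passed, and ORS 6 higher and 3 lower than HFSC, where 41.9% passed. Between the other populations fewer passed: 1 was higher in suprabasal HB against basal HB (27.9% of all genes), 1 lower in suprabasal HB against ORS (29.4%) and 2 lower in basal HB against ORS (30.5%). Without the first or the second HFSC library, 6 were higher in suprabasal HB than in HFSC, where 5414 of 20494 and 5922 of 20520 genes were higher. Fewer were higher than HFSC in suprabasal HB without its first library, in basal HB without its first and in ORS without its second. In these fits, fewer of all genes were higher too. Ep400, a chromatin remodeler, rose to 213.3 ± 37.2 normalised CPM in ORS, against 117.0 ± 11.4 in HFSC (SD, n = 2 and 3; 1.82-fold, adjusted p = 0.0008), and Trrap, the scaffold that MYC binds to recruit acetyltransferases, had 205.4 ± 43.6 in ORS against 128.2 ± 21.8 in HFSC (log2 0.68 ± 0.16, adjusted p = 0.0099). Hcfc1, a cofactor that binds MYC, was 1.68-fold higher in ORS than in HFSC (adjusted p = 0.00096). Zbtb17, which encodes MIZ1 and through which MYC represses genes, was 1.39-fold lower in suprabasal HB (adjusted p = 0.00066), 1.45-fold lower in basal HB (adjusted p = 0.00039) and 1.30-fold lower in ORS (adjusted p = 0.0035) than in HFSC.

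Genes that control the stability of MYC proteins included both stabilising and destabilising factors that differed from HFSC. Of the 12 tested, 8 were higher and 4 lower in suprabasal HB against HFSC (51.5% of all genes in either direction), 6 higher and 3 lower in basal HB against HFSC (48.9%), and 7 higher and 3 lower in ORS against HFSC (41.9%). Between the other populations, counts in either direction were near the share of all genes, with 2 higher and 1 lower in suprabasal HB against basal HB (27.9%), 3 lower in suprabasal HB against ORS (29.4%), and 4 lower in basal HB against ORS (30.5%). All of those called against ORS were lower, where 15.1% of all genes were lower in suprabasal HB and 14.7% in basal HB. The 8 higher in suprabasal HB against HFSC were fewer without the first suprabasal HB library. The 3 lower in suprabasal HB against ORS were all lost without that library or the second ORS library. In these fits, fewer of all genes passed in the same direction too. Skp2, a ubiquitin ligase subunit, averaged 45.4 ± 0.92 normalised CPM in suprabasal HB, 31.2 ± 0.50 in basal HB, 54.8 ± 1.009 in ORS and 22.7 ± 2.19 in HFSC (SD, n = 2, 2, 2 and 3), and was 2.42-fold higher in ORS than in HFSC (log2 1.28 ± 0.09, adjusted p = 4.1e-05). Set, a PP2A inhibitor that favours stable MYC, was 2.10-fold higher in suprabasal HB (adjusted p = 8.1e-05), 1.71-fold higher in basal HB (adjusted p = 0.00066) and 2.22-fold higher in ORS (adjusted p = 0.00014) than in HFSC. Aurka, a mitotic kinase that protects N-MYC from degradation, was 2.21-fold higher in ORS than in HFSC (adjusted p = 0.00023) and 1.61-fold higher in suprabasal HB than in HFSC (adjusted p = 0.002). Fbxw7, the ubiquitin ligase subunit that marks MYC proteins for degradation, was 1.51-fold lower in suprabasal HB than in HFSC (adjusted p = 0.0011) and 1.42-fold lower in basal HB than in HFSC (adjusted p = 0.003). Usp28, a deubiquitinase that counters it, was also lower than in HFSC, by 1.63-fold in suprabasal HB (adjusted p = 0.00017), 1.32-fold in basal HB (adjusted p = 0.0041) and 1.42-fold in ORS (adjusted p = 0.0018). The proliferation genes, which include mitotic kinases, were also higher in ORS than in HFSC, 10 of 10, and their part in the levels of Aurka and Skp2 was not tested.

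Of 15 genes of the SIN3 corepressor, through which MXD proteins and MNT repress, 2 were higher and 5 lower in suprabasal HB against HFSC, where 26.3% of all genes were lower, and 0 higher and 6 lower in suprabasal HB against ORS, where 15.1% were lower. Suprabasal HB had 1 higher and 2 lower than basal HB, where 13.1% of all genes were higher and 14.8% lower. Basal HB had 0 higher and 5 lower than ORS (14.7% of all genes lower), and 0 higher and 6 lower than HFSC (26.1% lower). In ORS against HFSC, 5 were higher (18.1% of all genes) and 2 lower (23.8%). The 0 higher in basal HB against HFSC rose above 0 in 8 settings that kept all libraries, and stayed at 0 with the replicate block. With limma on TPM, basal HB had instead 7 higher and 3 lower than HFSC, and ORS 10 higher than HFSC. Of all 20491 genes, limma on log2(TPM + 1) then passed 7940 as higher and 3018 as lower in basal HB against HFSC. It passed 5991 as higher in ORS against HFSC. Without the second ORS library, fewer were lower in suprabasal HB against ORS and fewer higher in ORS against HFSC, and fewer of all genes were too. Without the second HFSC library, 8 were higher in ORS against HFSC, where 4296 of 20520 genes were higher. Sap30, a SIN3 subunit, had 40.5 ± 3.28 normalised CPM in suprabasal HB, 38.2 ± 5.83 in basal HB, 91.2 ± 5.26 in ORS and 58.4 ± 5.58 in HFSC (SD, n = 2, 2, 2 and 3). It was 2.26-fold lower in suprabasal HB than in ORS (adjusted p = 0.00026) and 2.39-fold lower in basal HB than in ORS (adjusted p = 0.00029). Rbbp7, a histone-binding subunit, was 1.98-fold lower in basal HB than in ORS (adjusted p = 0.00033). Sap18 was 2.35-fold lower in suprabasal HB than in HFSC (adjusted p = 8.2e-06), but it shares reads with Gm10094, 98.82% of whose 25-base words are also found elsewhere, mainly in Sap18, and its value is uncertain.

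In the PRC1.6 complex that MGA joins, 6 of 12 genes were higher and 1 lower in suprabasal HB against HFSC (25.2% of all genes higher), 4 higher and 2 lower in basal HB against HFSC (22.8% higher), and 5 higher and 1 lower in ORS against HFSC (18.1% higher). In basal HB against ORS, 1 was higher and 5 were lower (14.7% of all genes lower). Fewer were lower without the first or second basal HB library or the first ORS library, where fewer of all genes were lower too. Without the second HFSC library, 8 were higher in ORS and 7 in basal HB than in HFSC, where 4296 and 5611 of 20520 genes were higher. Suprabasal HB had 2 higher and 1 lower than basal HB (13.1% of all genes higher), and 1 higher and 1 lower than ORS (14.3% higher). L3mbtl2, a histone-binding core subunit, had 71.1 ± 1.90 normalised CPM in suprabasal HB, 35.9 ± 0.86 in basal HB, 44.5 ± 1.53 in ORS and 27.3 ± 0.55 in HFSC (SD, n = 2, 2, 2 and 3), and was 2.60-fold higher in suprabasal HB than in HFSC (log2 1.38 ± 0.07, adjusted p = 1.4e-06) and 1.98-fold higher than in basal HB (adjusted p = 6.7e-05). Pcgf6, the subunit that defines the complex, was 1.72-fold higher in suprabasal HB (adjusted p = 0.0005), 1.39-fold higher in basal HB (adjusted p = 0.0082) and 1.70-fold higher in ORS (adjusted p = 0.00099) than in HFSC. Rnf2, its ubiquitin ligase, was lower than in HFSC in all 3, by 1.48-fold in suprabasal HB (adjusted p = 0.0015), 1.63-fold in basal HB (adjusted p = 0.00052) and 1.35-fold in ORS (adjusted p = 0.0089). Rybp, another subunit, was 1.78-fold lower in suprabasal HB than in basal HB (adjusted p = 0.0013).

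Genes known to be induced by MYC, a list of 40 for ribosome production, nucleotide and polyamine synthesis, metabolism and the cell cycle, were mostly higher in suprabasal HB and ORS than in basal HB and HFSC. In suprabasal HB against HFSC, 36 were higher and 2 lower, with a median log2 change of 0.67, against 25.2% of all genes higher and a median of 0.02 over all genes. Against ORS, suprabasal HB had 6 higher and 4 lower (median -0.04, with 14.3% of all genes higher and a median of -0.01), so most did not pass. Against basal HB, it had 26 higher and 1 lower (median 0.49, with 13.1% of all genes higher and a median of 0). Basal HB had 2 higher and 27 lower than ORS (median -0.47, with 14.7% of all genes lower and a median of -0.04). Basal HB had 15 higher and 3 lower than HFSC (median 0.18, with 22.8% of all genes higher), and in ORS against HFSC, 29 were higher and 0 lower (median 0.72, with 18.1% higher). With 1 library left out, fewer of all genes passed in the comparisons below, and several of these counts of induced genes fell too. Without the first basal HB library, 6 were higher in suprabasal HB against basal HB and 10 lower in basal HB against ORS. Suprabasal HB against basal HB had 13 higher without the second basal HB library and 9 without the second suprabasal HB library, and basal HB against HFSC had 7 higher without the second basal HB library. Suprabasal HB against ORS had 3 higher and 2 lower without the second suprabasal HB library, and 2 lower without the second ORS library. The proliferation genes, with sums given above, were higher in ORS than in each other population. Melanocyte sums were 11259.4 to 12474.8 TPM in suprabasal HB, 788.0 to 1294.8 in basal HB, 53.4 to 265.5 in ORS and 64.5 to 101.6 in HFSC. The part of either list in these counts was not tested.

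Members of the induced list differed in where they were highest. Odc1, the first enzyme of polyamine synthesis, had 1176 ± 244 normalised CPM in suprabasal HB, 783 ± 70.2 in basal HB, 244.0 ± 130.4 in ORS and 91.8 ± 21.2 in HFSC (SD, n = 2, 2, 2 and 3), and was 12.8-fold higher in suprabasal HB than in HFSC (log2 3.68 ± 0.33, adjusted p = 2.8e-05). Slc7a5, an amino acid transporter, had 948.4 ± 53.7 in suprabasal HB, 502.2 ± 0.47 in basal HB, 154.7 ± 15.5 in ORS and 79.3 ± 10.3 in HFSC, and was 11.95-fold higher in suprabasal HB than in HFSC (log2 3.58 ± 0.13, adjusted p = 5.5e-07). Both were highest in suprabasal HB and lowest in HFSC, whereas Mycl was highest in ORS. Tfrc, the transferrin receptor, went the other way, with 201.1 ± 50.8 in suprabasal HB, 346.9 ± 61.3 in basal HB, 748.4 ± 87.4 in ORS and 763.2 ± 50.2 in HFSC, and was 3.79-fold lower in suprabasal HB than in HFSC (adjusted p = 4.6e-05). Tert, the catalytic subunit of telomerase, was likewise 3.20-fold lower in suprabasal HB than in HFSC (adjusted p = 0.00031) at low levels of 3.87 ± 0.82 and 12.4 ± 1.48. Ppat, of purine synthesis, was 2.64-fold higher in ORS than in HFSC (adjusted p = 9.2e-05) and 2.25-fold lower in basal HB than in ORS (adjusted p = 0.00047).

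Genes known to be repressed by MYC, a list of 12, were mostly lower in suprabasal HB than in basal HB, and in ORS than in HFSC. Compared with basal HB, suprabasal HB had 1 higher and 7 lower (median log2 change -0.78, with 14.8% of all genes lower). Compared with ORS, suprabasal HB had 5 higher and 3 lower (median 0.71, with 14.3% of all genes higher), and compared with HFSC it had 2 higher and 4 lower (median -0.24, with 26.3% of all genes lower). Compared with ORS, basal HB had 7 higher and 1 lower (median 1.47, with 15.8% of all genes higher), and compared with HFSC it had 4 higher and 3 lower (median 0.29, with 22.8% of all genes higher and 26.1% lower). In ORS against HFSC, 1 was higher and 7 were lower (median -0.72, with 23.8% of all genes lower). The 7 lower in suprabasal HB against basal HB were fewer without the second basal HB library. The 5 higher in suprabasal HB against ORS were fewer without the second ORS or the first suprabasal HB library. In these fits, fewer of all genes passed in the same direction too. The list includes Itgb1 and Itga6, whose proteins were sort markers, and the part of the sort in their direction was not tested.

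Of the repressed list, the CDK inhibitors had the largest changes in basal HB against ORS. Cdkn1a, which encodes p21, had 135.0 ± 15.3 normalised CPM in suprabasal HB, 212.1 ± 12.5 in basal HB, 25.4 ± 9.82 in ORS and 34.7 ± 5.10 in HFSC (SD, n = 2, 2, 2 and 3), and was 8.38-fold higher in basal HB than in ORS (log2 3.07 ± 0.26, adjusted p = 0.00013). Cdkn2b, which encodes p15, had 12.1 ± 3.44 in suprabasal HB, 41.6 ± 5.59 in basal HB, 3.79 ± 0.40 in ORS and 9.02 ± 2.15 in HFSC. It was 3.45-fold lower in suprabasal HB than in basal HB (log2 -1.79 ± 0.26, adjusted p = 0.0014) and 10.97-fold higher in basal HB than in ORS (log2 3.46 ± 0.27, adjusted p = 0.00011). Ndrg1, a stress and differentiation gene, had 18.9 ± 1.84 in suprabasal HB, 45.0 ± 2.41 in basal HB, 17.4 ± 1.99 in ORS and 48.3 ± 5.30 in HFSC, and was 2.38-fold lower in suprabasal HB than in basal HB (adjusted p = 0.00034) and 2.78-fold lower in ORS than in HFSC (adjusted p = 7.9e-05). Ndrg2 had the largest change in ORS against HFSC, with 8.66 ± 7.0 in ORS against 43.4 ± 5.03 in HFSC (log2 -2.34 ± 0.55, adjusted p = 0.0089). Cebpa, a factor of differentiation, was the exception in ORS, 1.90-fold higher than in HFSC (adjusted p = 0.001).

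**Figure D5:**
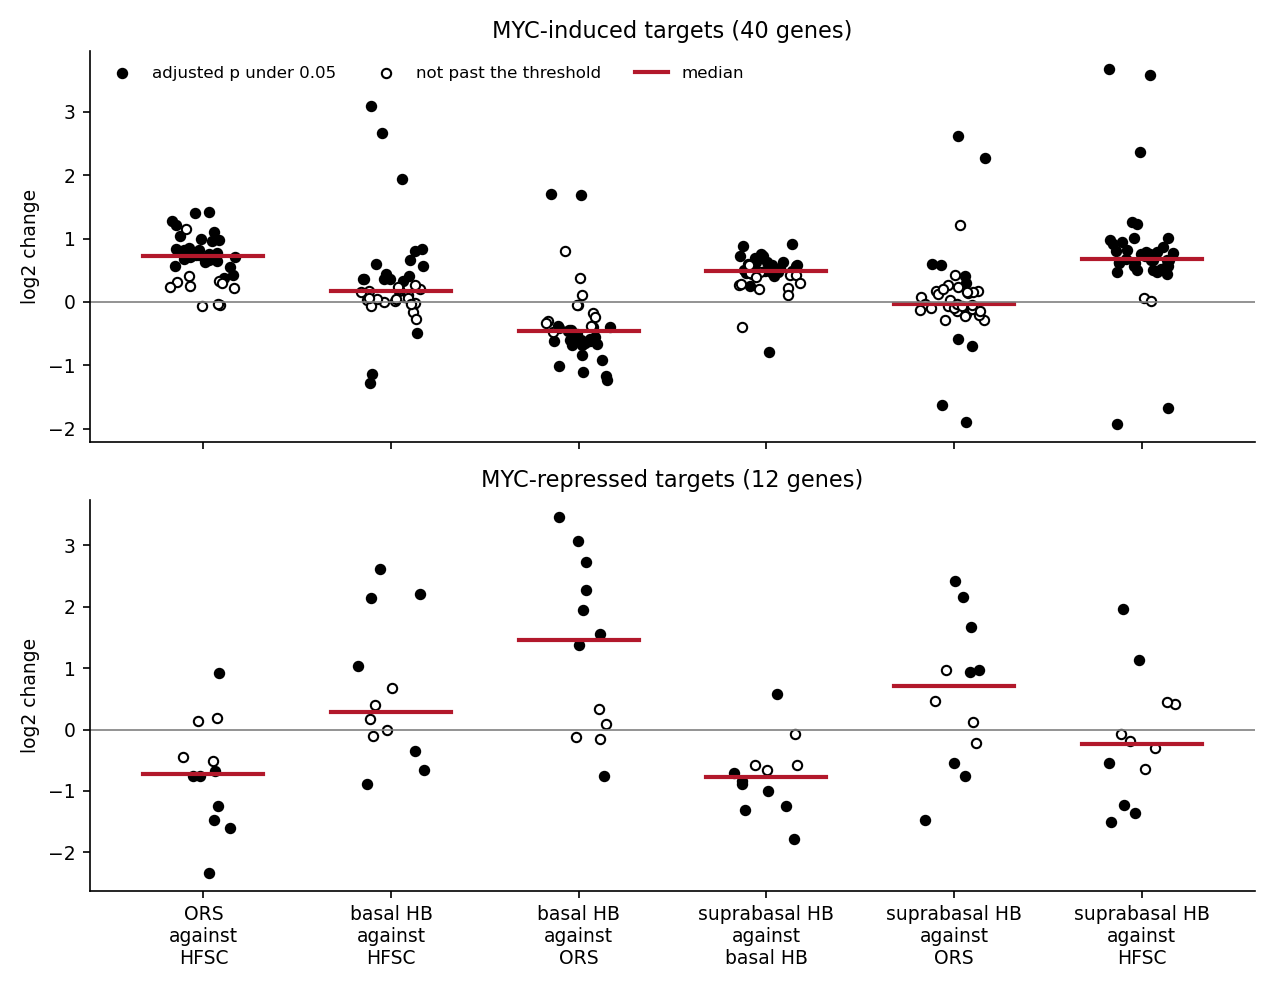
Log2 change (y axis) of 40 genes known to be induced by MYC (upper panel) and 12 known to be repressed by it (lower panel) in the 6 comparisons (x axis); filled points passed an adjusted p of 0.05, open points did not, and red bars are medians. The median of the induced genes is 0.67 in suprabasal HB against HFSC and -0.47 in basal HB against ORS, and that of the repressed genes is -0.24 and 1.47 in the same comparisons.

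Genes whose normalised log2 CPM was most like that of each paralog were ranked by Pearson's r over the 9 libraries among 10371 genes, as a description in which all points share libraries and populations. For Mycl they were Mphosph9 (r = 0.99), Ttf2, Fastkd1, Zcchc8 and Gid4 (r = 0.99). Mphosph9 averaged 7.13 TPM in suprabasal HB, 8.79 in basal HB, 15.6 in ORS and 7.08 in HFSC. For Myc they were Sh3kbp1 (r = 0.97), Ttc13, Lonp1, Afg3l2 and Abcb10 (r = 0.95), of which Lonp1 and Afg3l2 encode mitochondrial proteases. Sh3kbp1 averaged 27.9 TPM in suprabasal HB, 9.06 in basal HB, 18.8 in ORS and 11.4 in HFSC. For Mycn they were Rpl27-ps3 (r = 0.998), Alg13, Gm10094, Rps7 and Gm10076 (r = 0.99). All except Alg13 share at least 32.04% of their 25-base words with other genes, so their values are uncertain. Rpl27-ps3 averaged 1690 TPM in suprabasal HB, 1558 in basal HB, 1476 in ORS and 220.5 in HFSC. In the same order, Gm10094 averaged 195.8, 174.6, 181.3 and 62.82 TPM, and Rps7 498.3, 487.2, 448.9 and 61.45. Gm10076 averaged 1457, 1302, 1216 and 12.34 TPM. Whether a difference between libraries plays a part in these levels or in that of Mycn was not tested. Alg13, which acts in protein glycosylation, averaged 15.98 TPM in suprabasal HB, 17.1 in basal HB, 14.5 in ORS and 7.39 in HFSC.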

How the data were processed

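Mouse back skin populations were measured by bulk RNA sequencing in 9 libraries. The authors deposited, for each library, expected counts from RSEM, which are estimated read counts not scaled for depth, and TPM, which the authors divided by effective length and scaled to the same sum in every library; the deposited effective length in bases was also used. Per the submitters' processing notes, Bowtie2 2.2.9, RSEM 1.2.30 and mm10 were used; parameters, annotation and counting strand are not given in the sources used here. Of the gene rows, 98.9% matched GENCODE M21, and the 92 ERCC rows were at 0. A deposited whole-series TPM table (9 columns, 3 with names that are no sample label) and 9 FPKM columns were not used.

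Expected counts were rounded and fitted in edgeR 4.0.16 (R 4.3.3) with filterByExpr, TMM and 1 quasi-likelihood model of 4 population means over all 9 libraries, with 5 residual degrees of freedom. F-tests were 2-sided, adjusted by Benjamini-Hochberg over 20491 genes, with a threshold of 0.05. The standard error of a log2 change was its size over the square root of its F value, and 95% intervals are normal approximations from them. Normalised CPM are counts scaled by TMM library size. TPM alone was used to compare levels between genes. Alternatives were DESeq2 1.42.0, limma 3.58.1 on log2(TPM + 1) and log2(TPM + 0.1), other scalings and filters, a replicate block and leaving out each library, 18 settings per gene. Read sharing was counted as 25-base words that a gene's annotated transcripts share with another gene. The procedure was tested on simulated data. Replicate libraries differed by more than sampling noise, so none was counted as a duplicate.

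The members, lists and tests were chosen with earlier results of these data known, among them the higher Mycn in ORS than in HFSC. All 10 members are named; from each list, at most 3 genes with the largest rise and 3 with the largest fall per comparison were eligible, and every measured E-box factor. Cip2a (also listed as Kiaa1524), of the stability list, was not analysed here.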

Additional observations from a re-analysis of the deposited data

How the results depend on the processing

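Of the 32 member calls, 16 held in all 18 settings and 16 were lost in at least 1. Counts of members called moved by more than 1.5 times in these cases: on TPM with either pseudocount, 2 rather than 5 passed in suprabasal HB against basal HB, and 2 rather than 4 against ORS. Leaving out 1 library gave 5 to 7 calls in ORS against HFSC, 1 to 6 in basal HB against HFSC (1 without the first and 2 without the second basal HB library), 4 to 6 in basal HB against ORS, 2 to 6 for suprabasal HB against basal HB (2 without either basal HB library and 3 without either suprabasal HB library), and in suprabasal HB 4 to 5 against ORS and 4 to 8 against HFSC. Where this left a population with 1 library, that library was assumed to vary like the others. Over all genes, fewer passed too when a library of a compared population was left out. The exception was suprabasal HB against HFSC without the second HFSC library. The Mycn to Myc ratio kept its exact permutation p of 0.0032 on CPM and with a pseudocount of 1 TPM, and gave 0.0095 to 0.038 with 1 library left out, with spans of 2.37 to 2.70. Counts over the gene lists stayed within 1.5 times in 623 and moved further in 133 combinations of list, comparison and setting, of which 34 fell on each TPM pseudocount. On TPM, the induced list had 28 rather than 15 higher in basal HB against HFSC and 13 rather than 26 higher in suprabasal HB against basal HB. With a pseudocount of 1, it had 14 rather than 4 lower in suprabasal HB against ORS. Over all 20491 genes, limma on log2(TPM + 1) passed 7940 rather than 4681 as higher in basal HB against HFSC. It passed 1098 rather than 2679 as higher in suprabasal HB against basal HB, and 4035 rather than 3094 as lower in suprabasal HB against ORS. The repressed list had 2 rather than 5 higher in suprabasal HB against ORS with only those populations fitted. Leaving out 1 library, an alternative added after seeing the data for the lists, moved 148 of their counts and left 608 within 1.5 times.

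With the replicate number as a block, 5 members passed in ORS against HFSC, 5 in basal HB against HFSC, 6 in basal HB against ORS, and for suprabasal HB there were 5 against basal HB, 4 against ORS and 5 against HFSC. Of all 20491 genes, the block passed 7386 in ORS against HFSC, 8964 in basal HB against HFSC and 5875 in basal HB against ORS. The fit without it passed 8576, 10026 and 6245. For suprabasal HB, the block passed 5214 against basal HB, 5512 against ORS and 9518 against HFSC. Without it, these were 5721, 6021 and 10562. The block took the adjusted p of 4 calls past 0.05, namely Myc (0.0602) and Mxd3 (0.056) in ORS against HFSC and Mxd1 in basal HB (0.0664) and suprabasal HB (0.082) against HFSC, and brought Mycl (0.00454) and Mxi1 (0.0245) in basal HB against HFSC under it. Deviations of same-numbered libraries correlated at -0.07 to 0.12 over 20491 genes with 2 pairs per comparison, which does not settle whether same-numbered libraries share a source.

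Signs that reversed, all of changes not past the threshold by the count test, were these log2 values. On TPM + 1 and TPM + 0.1, Myc in basal HB against HFSC gave 0.027 and 0.028, Mycl in suprabasal HB against basal HB -0.064 and -0.065, Mxd4 in basal HB against HFSC 0.418 and 0.424 and in suprabasal HB against ORS -0.088 and -0.090, Mxi1 in ORS against HFSC 0.185 and 0.207, Mga in suprabasal HB against HFSC -0.003 and -0.002, and Mnt in suprabasal HB against ORS -0.097 and -0.103. Max gave 0.307 and 0.312 in ORS against HFSC and -0.137 and -0.139 in suprabasal HB against basal HB. Max in ORS against HFSC also gave 0.049 with upper-quartile scaling, 0.065 with no filter and 0.060 with only those populations fitted. With 1 library left out, the range was -0.132 to 0.082 for Max in ORS against HFSC (positive without any HFSC library, the first ORS or the second suprabasal HB library) and -0.039 to 0.268 for Max in suprabasal HB against basal HB (negative without the second suprabasal HB library). It was -0.111 to 0.030 for Mxd1 in suprabasal HB against basal HB, -0.222 to 0.037 for Mxd4 in basal HB against HFSC, -0.048 to 0.214 for Mxd4 and -0.012 to 0.259 for Mnt in suprabasal HB against ORS, and -0.138 to 0.098 for Mxi1 in ORS against HFSC, which was 0.012 with the block. The cause was not tested. A floor of 3 counts was worth 0.034 to 0.12 CPM, below every member.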
